A study of Homo sapiens with 6 samples.

Results

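Caveolae are small flask-shaped pits of the plasma membrane, and their coat is built by 2 protein families and a few partners, whose transcripts were followed here in M14 cells, an established human melanoma line. The 7 genes were taken by name from the table of 26748 genes, as the caveolins CAV1 and CAV2, the cavins CAVIN1, CAVIN2 and CAVIN3 (older names PTRF, SDPR and PRKCDBP), and the partners EHD2 and PACSIN2. All 7 had a row, and all 7 passed the minimum mean of 10 normalised counts that left 15598 genes for testing. The genes were chosen with the difference between the cultures known, so their own differences are given as a description without a test.

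RNA was sequenced from M14 cells grown without attachment as floating melanospheres (3D, 3 libraries) and from M14 cells grown attached in conventional culture (2D, 3 libraries). No treatment or genetic change is given in the labels for either culture, and the same line was used for all 6 libraries. The culture conditions and times are not given in the labels used here, and the labels do not say whether replicates came from separate cultures. Values are normalised read counts, that is, read counts that the authors divided by 1 size factor per library, and a difference is the 3D minus the 2D mean of log2(normalised count + 1), a scale that understates the change of low genes. Since whole cultures were sequenced, fewer cells with a transcript and less of it per cell cannot be told apart.

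Caveolin oligomers form in the membrane, and caveolin-2 depends on caveolin-1 to leave the Golgi. Cavins, with cavin-1 as the common partner, then assemble on the caveolin-rich membrane from the cytosol. Loss of either caveolin-1 or cavin-1 removes caveolae from non-muscle cells, EHD2 is an ATPase ring that holds caveolae at the surface, and PACSIN2 is a membrane-bending F-BAR protein of the neck. Caveolae flatten when the membrane is stretched, and in attached cells they are often aligned with actin stress fibres.

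The libraries held 16567763 to 19954987 recovered reads, so counting error was small for every member except CAVIN2. The 2D libraries 1 and 2 resembled each other (Pearson r of log2 values 0.982 over all 26748 genes) more than either resembled 2D replicate 3 (0.969 and 0.966). Likewise, 3D replicates 1 and 3 resembled each other (0.979) more than either resembled 3D replicate 2 (0.971 and 0.972). Over all genes tested, 24.1% differed between the cultures at an adjusted p under 0.05 by limma, 12.5% with 3D higher and 11.6% with 3D lower. The median log2 difference over all genes tested was -0.02, and it was 0.11 when the libraries were scaled to equal totals instead.

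The starts of the caveolin genes are shown because CAV1 and CAV2 lie side by side on chromosome 7 and had the members' largest differences, and that of CAVIN2 is shown for contrast. Promoter windows of 250 bases before an annotated RefSeq start (GRCh38.p14) were found for 5 members, CAV1, CAV2, CAVIN2, EHD2 and PACSIN2, and CAVIN1 and CAVIN3 had no entry. In capitals are GC boxes (GGGCGG, either strand) for CAV1 and CAV2, and a TEAD motif (GGAATG, either strand) for CAVIN2, each within 30 bases of sequence printed from 5′ to 3′ on the gene's strand. GENCODE 29 holds further transcripts of these 3 genes that start upstream of the RefSeq start, so all 6 stretches lie before a RefSeq start but inside a first exon of another annotated transcript.
CAV1, chr7:116524817-116524846, plus strand: tgcgggcgctccCCGCCCtctgctgccaga
CAV1, chr7:116524905-116524934, plus strand: caaacctttggcGGGCGGccaggaggctcc
CAV2, chr7:116499494-116499523, plus strand: ctgccggcgtcgCCGCCCactgcagggccc
CAV2, chr7:116499564-116499593, plus strand: gggaggtGGGCGGggagGGGCGGcggggcg
CAV2, chr7:116499641-116499670, plus strand: gggaagcggccgCCGCCCgggcctcgcagg
CAVIN2, chr2:191847089-191847118, minus strand: ctttaagagcagctGGAATGcagttcccct
The first CAV2 window held 6 GC boxes, at 232, 167, 157, 141, 85 and 49 bases before the RefSeq start, and was 83.2% G or C. The first CAV1 window held 3, at 180, 92 and 64 bases before the RefSeq start, and was 63.6% G or C. A GC box occurred in 42.6% of all 35116 promoter windows of this length, whose median was 58.0% G or C. The CAVIN2 window had no GC box, was 48.0% G or C and held 1 TEAD motif at 16 bases before the RefSeq start, a motif found in 11.9% of all windows. No match to the AP-1 motif (TGANTCA), the TATA box (TATAAA), the FOXO motif (GTAAACA) or the CArG box was found in the first windows of CAV1, CAV2 and CAVIN2, against 6.57%, 10.7%, 2.98% and 1.16% of all windows. The first windows of CAV1 and CAV2 held no TEAD motif either. Among the other members with windows, EHD2 held a GC box at 57 bases and no TEAD motif. PACSIN2 held GC boxes at 78 and 25 bases in a window without a TEAD motif. It held a TEAD motif at 49, 67 and 92 bases in overlapping windows, and at 213 bases in a further window. Neither motif was thus particular to the genes printed above. The motifs were searched on both strands, and a match is only a match of letters.

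Transcripts of both caveolins were far less abundant in melanospheres, those of CAVIN1 and PACSIN2 were moderately less abundant, and those of CAVIN2, CAVIN3 and EHD2 overlapped between the cultures. In 4 of the 7 genes every 3D library was below every 2D library. Over all genes tested, the cultures did not overlap in 43.1%, with 3D lower in 22.6%. The members were picked on this same contrast, so nothing is read from their count against that background.

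**Figure D1:**
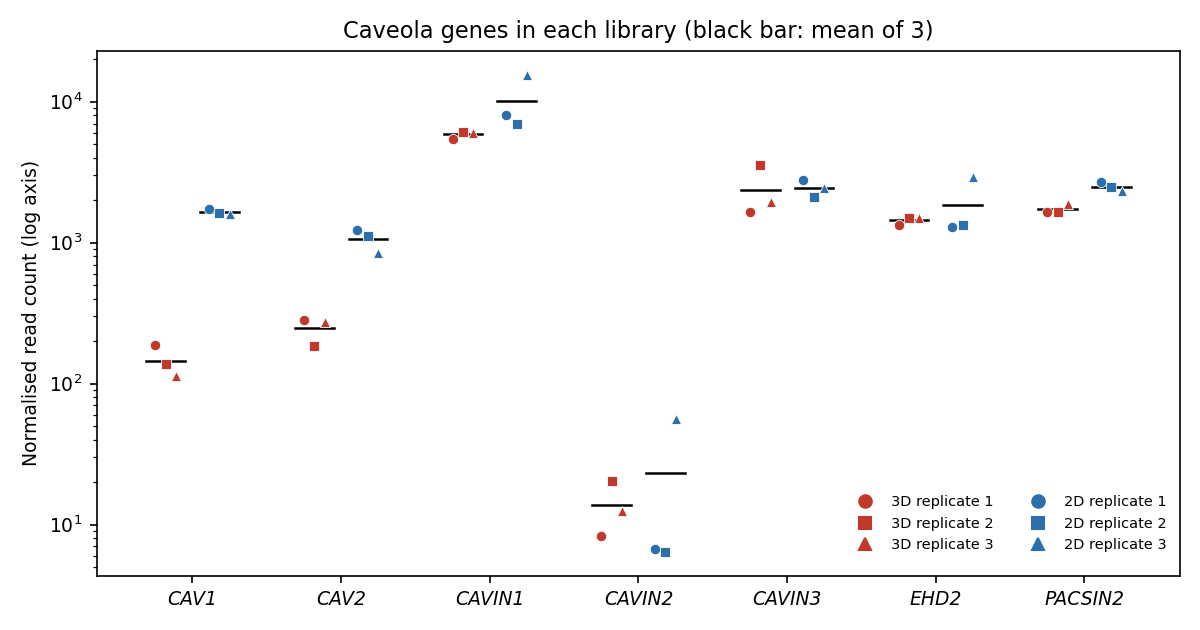
Normalised read counts (log axis) of the 7 caveola genes in each 3D library (red) and each 2D library (blue), with a black bar at the mean of 3. CAV1 and CAV2 sit far lower in all 3D libraries, while 2D replicate 3 stands above the other 2D libraries in CAVIN1, CAVIN2 and EHD2.

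CAV1, which encodes caveolin-1, the structural protein without which non-muscle caveolae do not form (ENSG00000105974, chromosome 7, 116524785 to 116561184, plus strand, GENCODE 29 on GRCh38), had 187.4, 136.7 and 112.5 normalised counts in 3D replicates 1 to 3, against 1742.2, 1617.3 and 1592.5 in 2D replicates 1 to 3. The groups were far apart, and the lowest 2D library held 8.50 times the highest 3D library. Means were 146 ± 38.2 in 3D and 1651 ± 80.2 in 2D (SD, n = 3 each), a log2 difference of -3.53 (SE 0.22), or 11.3-fold less in 3D. With any single library left out the difference stayed between -3.72 and -3.36. In the order of all 15598 differences, CAV1 stood at place 87 from the lowest.

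CAV2, the caveolin that forms hetero-oligomers with caveolin-1 (ENSG00000105971, chromosome 7, 116287380 to 116508541, plus strand), had 281.1, 185.2 and 273.5 normalised counts in the 3D libraries, against 1221.8, 1117.7 and 839.9 in the 2D libraries. No 3D library came near a 2D library, and the lowest 2D library held 2.99 times the highest 3D library. Means were 247 ± 53.4 in 3D and 1060 ± 197 in 2D, a log2 difference of -2.11 (SE 0.24), or 4.30-fold less in 3D, and leaving out any single library kept it between -2.26 and -1.91. The antisense genes that overlap CAV1 and CAV2 had at most 7.62 normalised counts in any library.

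Among the cavins, CAVIN1, the cavin required for all caveolar coats (ENSG00000177469, chromosome 17, 42402452 to 42423517, minus strand), had 5452.8, 6144.9 and 6001.6 normalised counts in the 3D libraries, against 8000.9, 6953.8 and 15576.3 in the 2D libraries. The 3D libraries lay close together and below all 2D libraries, with the lowest 2D library only 1.13 times the highest 3D one. 2D replicate 3 stood at 2.08 times the mean of the other 2D libraries. The log2 difference was -0.70 (SE 0.29), and -0.35 without 2D replicate 3.

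CAVIN2, a cavin that shapes caveolar membrane in endothelium and other tissues (ENSG00000168497, chromosome 2, 191834302 to 191847255, minus strand), was scarce. It had 8.35, 20.4 and 12.4 normalised counts in the 3D libraries, from 9, 21 and 12 reads, against 6.67, 6.41 and 56.5 in the 2D libraries, from 7, 6 and 55 reads. The groups overlapped, since 2D replicates 1 and 2 were below all 3D libraries and 2D replicate 3 was above them, at 8.65 times the mean of the other 2D libraries. The log2 difference was -0.10 (SE 0.81). It turned to 0.88 without 2D replicate 3 and to 0.02 with libraries scaled to equal totals, and was -0.73 at the low end of the other alternatives.

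CAVIN3, a cavin that binds protein kinase C delta (ENSG00000170955, chromosome 11, 6318946 to 6320647, minus strand), had 1643.2, 3566.4 and 1939.6 normalised counts in the 3D libraries, against 2790.5, 2107.3 and 2425.2 in the 2D libraries. The highest and the lowest of the 6 libraries were both from 3D, so the groups overlapped fully, and 3D replicate 2 stood at 1.99 times the mean of the other 3D libraries. The log2 difference was -0.11 (SE 0.28), with a range from -0.44 to 0.12 when single libraries were left out and a value of 0.02 with equal library totals. Counts of this gene are uncertain: 26.3% of its 75-base windows also occur in transcripts of other genes, most often AC068733.3. That gene lies on the opposite strand and itself had 0 to 26.8 normalised counts, and the library kit does not keep the strand.

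Of the partners, EHD2 (ENSG00000024422, chromosome 19, 47713343 to 47743134, plus strand) had 1335.1, 1497.7 and 1507.1 normalised counts in the 3D libraries, against 1283.8, 1324.8 and 2921.8 in the 2D libraries. The 3D libraries fell between 2D replicates 1 and 2 and 2D replicate 3, which was 2.24 times the mean of the other 2D libraries. The log2 difference was -0.24 (SE 0.30), and 0.15 without 2D replicate 3.

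PACSIN2 (ENSG00000100266, chromosome 22, 42835412 to 43015145, minus strand) had 1650.6, 1657.6 and 1873.6 normalised counts in the 3D libraries, against 2675.2, 2469.1 and 2312.1 in the 2D libraries. All 3D libraries were below all 2D libraries, with a narrow spread in each culture and a gap of 1.23 times. Means were 1727 ± 127 in 3D and 2485 ± 182 in 2D, a log2 difference of -0.52 (SE 0.15). This difference stayed between -0.58 and -0.47 with any single library left out, and shrank to -0.39 with libraries scaled to equal totals. Of the PACSIN2 windows, 1.67% also occur in transcripts of other genes, most often ARFGAP3. ARFGAP3, which overlaps PACSIN2 on the same strand, had 515.9, 567.1 and 444.9 in the 3D libraries, against 743.4, 709.9 and 301.2 in the 2D libraries, and overlapped between the cultures.

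**Figure D2:**
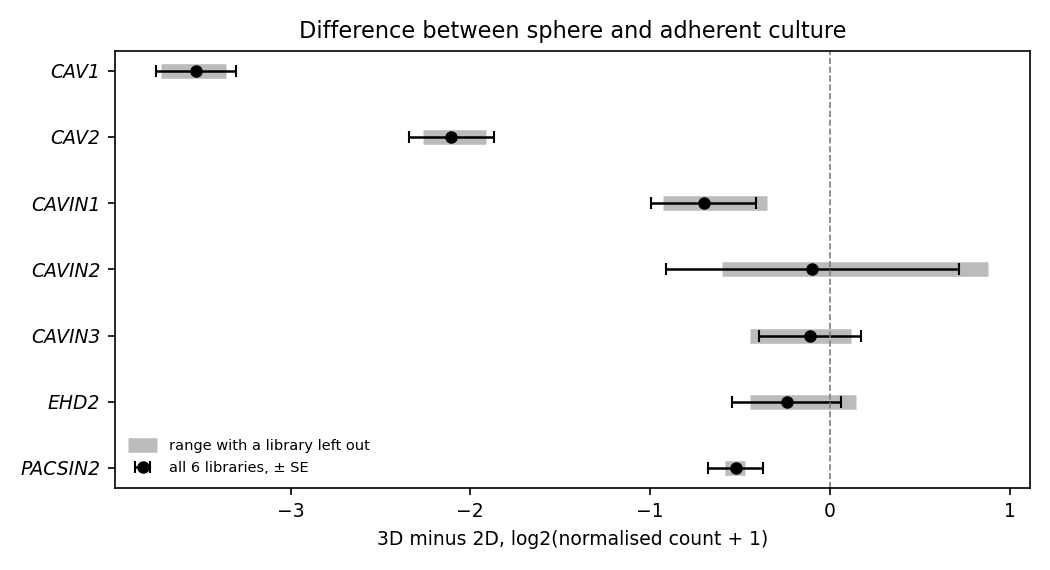
Log2 difference, 3D minus 2D, of each caveola gene (points, bars for the SE over 6 libraries) with the range when single libraries are left out (grey). CAV1 at -3.53 and CAV2 at -2.11 stand apart from the other members, and the ranges of CAVIN2, CAVIN3 and EHD2 span 0.

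The values of single libraries moved in 2 ways. 2D replicate 3 was at least 1.5 times the mean of the other 2D libraries in CAVIN1, CAVIN2 and EHD2, as in 21.2% of all genes tested, and 3D replicate 2 was so against the other 3D libraries in CAVIN2 and CAVIN3, as in 10.4%. Without 2D replicate 3, EHD2 and CAVIN2 had 3D above 2D in every library, so that 6 members did not overlap, 4 with 3D lower and 2 with 3D higher, in a setting where 67% of all genes tested did not overlap, 34.4% with 3D lower and 32.6% with 3D higher. Over the 6 libraries, CAV1 moved with CAV2 (Pearson r 0.97) and with PACSIN2 (0.93), while EHD2 moved with CAVIN2 (0.94) and CAVIN1 (0.88). CAV1 and EHD2 had an r of 0.26. These coefficients describe 6 points in 2 cultures, share the scaling of each library, and rest largely on the gap between cultures for the caveolins and on 2D replicate 3 for EHD2.

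Levels of different genes were compared per kilobase of exon, with the exons of all GENCODE 29 transcripts of a gene merged. In 3D the order was CAVIN1 at 1533 ± 95.4 normalised counts per kb, CAVIN3 at 1425 ± 619, PACSIN2 at 379 ± 27.8, EHD2 at 369 ± 24.6, CAV1 at 35.7 ± 9.37, CAV2 at 35.6 ± 7.70 and CAVIN2 at 4.24 ± 1.89 (SD, n = 3 each). The ranges of the 3D libraries overlapped between CAVIN1 and CAVIN3, between PACSIN2 and EHD2, and between CAV1 and CAV2. The same order held in 2D, at 2659 ± 1229 for CAVIN1, 1460 ± 204 for CAVIN3, 546 ± 40.0 for PACSIN2, 470 ± 238 for EHD2, 404 ± 19.7 for CAV1, 153 ± 28.5 for CAV2 and 7.19 ± 8.94 for CAVIN2. There the ranges of EHD2 overlapped those of both PACSIN2 and CAV1. With the length of the longest coding transcript in place of the merged exons, CAVIN3 stood above CAVIN1 and CAV2 above CAV1 in 3D, and CAV1 stood above EHD2 in 2D, so the places of these pairs depend on the length used. Among protein-coding genes, CAV1 lay at percentile 36.1 to 43.1 of the level per kb in the 3D libraries and at 84.7 to 86.5 in the 2D libraries, whereas CAVIN1 lay at 97.5 to 97.7 in 3D and at 98.0 to 99.1 in 2D.

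Relative to CAV1, CAVIN1 and EHD2 transcripts stood higher in every 3D library than in any 2D library. Per kb, the CAVIN1 level was 31.0, 47.9 and 56.9 times the CAV1 level in the 3D libraries, against 4.90, 4.58 and 10.4 times in the 2D libraries. The EHD2 level was 7.41, 11.4 and 13.9 times that of CAV1 in the 3D libraries, against 0.767, 0.852 and 1.91 times in the 2D libraries. In both ratios the cultures did not overlap, also with the high 2D replicate 3. Since CAV1 is the denominator of both and was chosen with its difference known, the ratios largely restate the CAV1 difference.

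Within the families, the CAV1 level was 1.13, 1.25 and 0.698 times the CAV2 level in the 3D libraries, against 2.42, 2.46 and 3.22 times in the 2D libraries, with no overlap. The CAVIN1 level was 1.45, 0.753 and 1.35 times that of CAVIN3 in the 3D libraries, against 1.25, 1.44 and 2.81 times in the 2D libraries, and here the cultures overlapped. Summed per kb, the caveolins reached 71.3 ± 13.6 in 3D and 557 ± 45.9 in 2D, and the cavins 2962 ± 697 in 3D and 4126 ± 1269 in 2D.

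**Figure D3:**
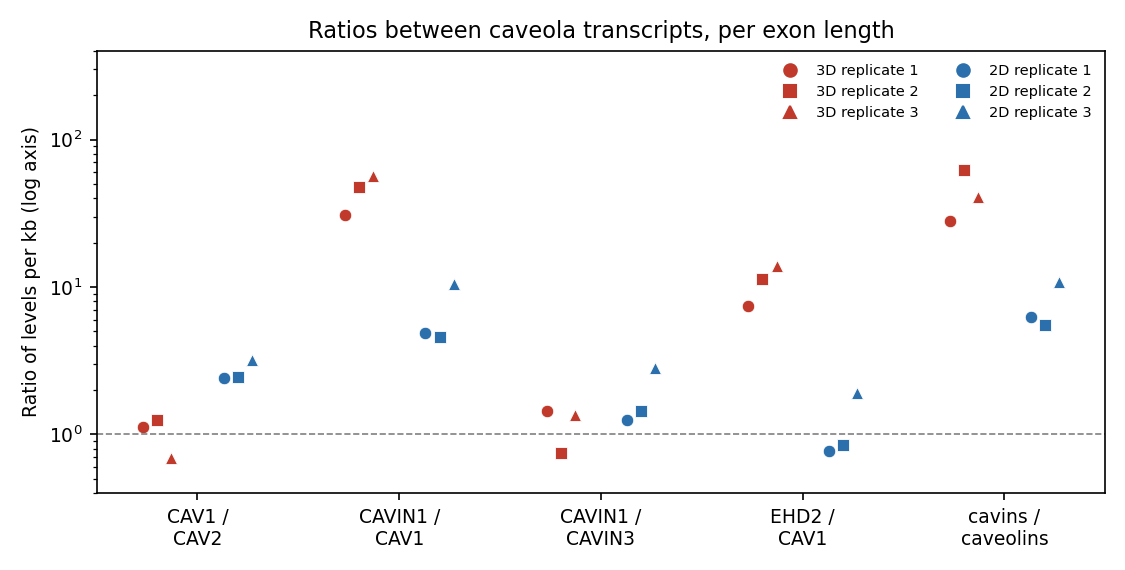
Ratios between caveola transcripts, each as a level per kb of exon over another (log axis), in 3D (red) and 2D (blue) libraries. All ratios over CAV1 or over the summed caveolins are higher in every 3D library, and CAV1 over CAV2 is lower in every 3D library.

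Distances between genes are given between RefSeq starts (GRCh38.p14), since the GENCODE 29 model of CAV2 printed above begins farther upstream than its RefSeq start. By these starts CAV2 and CAV1 lie 25.3 kb apart, and the 3 nearest protein-coding genes on each side were read with them. MET, the receptor of hepatocyte growth factor, starts 147.2 kb beyond the CAV1 start and had 589.2, 869.5 and 569.8 normalised counts in the 3D libraries, against 3167.9, 3436.3 and 3485.2 in the 2D libraries. It fell by 2.34 on the log2 scale (SE 0.20, limma adjusted p over all genes 0.00045), with no overlap between the cultures. TES, which encodes the focal adhesion protein testin, starts 314.5 kb before CAV1 and fell to 961 ± 348 in 3D, against 3467 ± 1286 in 2D (log2 -1.83, SE 0.34, limma adjusted p 0.0084).

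ST7, at 428.5 kb, fell to 242 ± 23.8 in 3D, against 665 ± 233 in 2D (log2 -1.41, SE 0.26, limma adjusted p 0.0081). The calls of MET, TES and ST7 were kept with each library left out in turn. CAPZA2, an actin capping protein subunit that lies between MET and ST7, did not pass, at 1816 ± 685 in 3D and 2242 ± 281 in 2D (log2 -0.36, SE 0.26, limma adjusted p 0.33). MDFIC, 1602.9 kb before CAV1, had a log2 difference of -0.51 (SE 0.15, limma adjusted p 0.044), a call that was kept only without 2D replicate 3 (0.021) and lost without any other single library (0.070 to 0.15), with equal library totals (0.11), without a filter on low values (0.073) and with edgeR (0.059). TFEC, with 1.03 to 5.57 normalised counts in 3D and 7.62 to 20.6 in 2D, was too low to test.

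**Figure D4:**
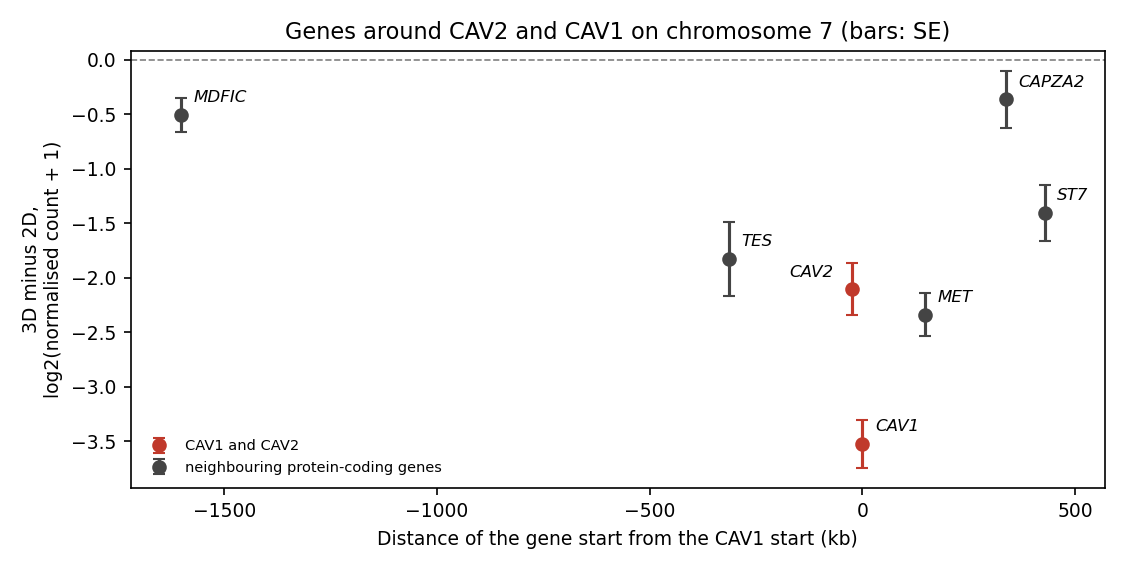
Log2 difference, 3D minus 2D (points, bars for the SE), of CAV1, CAV2 and their tested protein-coding neighbours against the distance of each gene start from the CAV1 start. CAPZA2 at -0.36 lies nearest 0, between MET at -2.34 and ST7 at -1.41.

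The genes whose values followed CAV1 most closely over the 6 libraries, among 12682 protein-coding genes, were ENDOD1 (Pearson r 0.9998), MDFIC (0.9994), MCPH1 (0.9983), PRRG1 (0.9982) and NCOA7 (0.9970). Their differences were smaller than that of CAV1, from a log2 of -1.50 for NCOA7, with 273 ± 36.9 in 3D and 772 ± 24.2 in 2D, to -0.40 for ENDOD1, with 1358 ± 39.5 in 3D and 1788 ± 5.13 in 2D. Likeness here means that the 2D libraries were close to each other and apart from the 3D libraries. The genes most like CAVIN1 were NUAK2 (0.9984), FAM83D (0.9974), EXTL3 (0.9945), HNRNPH2 (0.9922) and MLEC (0.9895). None of these passed the limma test, with adjusted p from 0.074 for FAM83D to 0.27 for HNRNPH2. FAM83D passed limma without 2D replicate 3 (0.022), and FAM83D and NUAK2 passed with DESeq2 (adjusted p 0.012 and 0.046). All the genes like CAV1 or CAVIN1 were picked on the same 6 libraries, by likeness to a member, so nothing is read from their test outcomes. NUAK2, a stress-activated kinase, had 217 ± 13.4 in 3D and 405 ± 196 in 2D, and like CAVIN1 it carried its spread in 2D.

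The other genes of the pathway were read from 7 lists by function, 95 tested genes without the members. The lists were chosen with earlier results of these data known. Of the 95 genes, 30 (31.6%) fell and 4 (4.21%) rose at a limma adjusted p under 0.05 over all genes, beside 11.6% and 12.5% of all genes tested. Because of that choice, nothing is read from these shares against that background. The count of 34 was 29 without 3D replicate 2 and 49 without 2D replicate 3. It was 14 without 3D replicate 1 or 3, and 19 and 22 without 2D replicates 1 and 2.

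Of the relatives of the members, EHD1, an endosomal recycling ATPase, fell to 1214 ± 139 in 3D, against 2459 ± 881 in 2D (log2 -0.97, SE 0.25, limma adjusted p 0.026), a call lost without 3D replicate 1, 2 or 3 (0.097, 0.063 and 0.069). EHD4 (-0.36, 0.17), PACSIN1 (-0.61, 0.33) and PACSIN3 (0.26, 0.30), given with their log2 difference and limma adjusted p, did not pass. The muscle genes CAV3 and CAVIN4 were too low to test.

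Among 12 tested scaffolds, kinases and cargo of caveolae, 3 fell and 2 rose (median log2 -0.20). DLC1, which encodes a protein that binds caveolin-1, fell to 2.54 ± 1.88 in 3D, against 52.3 ± 38.3 in 2D (log2 -3.81, SE 0.65, limma adjusted p 0.0060), also with each library left out in turn. FLNA, the filamin that links caveolae to actin, fell to 19002 ± 1954 in 3D, against 34740 ± 2530 in 2D (log2 -0.87, limma adjusted p 0.018). PRKCA, a kinase that caveolin-1 binds, rose to 1724 ± 738 in 3D, against 709 ± 98.6 in 2D (log2 1.21, limma adjusted p 0.018). ROR1 (log2 -1.17) also fell and DNM1 (1.73) also rose. The FLNA call was lost when replicate 1 of 3D (0.099), replicate 3 of 3D (0.093) or replicate 2 of 2D (0.063) was left out, and the PRKCA call without 2D replicate 1 (0.071) or 2 (0.054). The ROR1 call was lost without any library other than 3D replicate 2 and 2D replicate 3, and so was that of DNM1. That of ROR1 was also lost with equal library totals (0.052) and without a filter on low values (0.059). The list had 2, 1 and 8 calls without 2D replicates 1, 2 and 3, and 2 calls without 3D replicate 1 or 3.

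Of 8 tested raft and SPFH proteins, 3 fell and none rose (median log2 -0.43). ERLIN1, a raft protein of the endoplasmic reticulum, fell to 2456 ± 141 in 3D, against 5967 ± 1440 in 2D (log2 -1.25, limma adjusted p 0.0056), and kept its call with each library left out. ERLIN2 (-0.86, 0.018) and STOM, the red cell band protein stomatin (-1.30, 0.042), fell too, but both calls were lost without 2D replicate 1 or 2 or 3D replicate 1 or 3, and that of STOM also without 3D replicate 2 (0.066) and with equal library totals (0.059). The list then had 1 call without 2D replicate 1 or 2 or 3D replicate 1 or 3, and 6 without 2D replicate 3, of which 5 lower.

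Of 23 tested clathrin coat genes, which serve the other main route of uptake, 5 fell and none rose (median log2 -0.25). DAB2, an adaptor for integrins and lipoprotein receptors, fell to 993 ± 278 in 3D, against 5185 ± 1528 in 2D (log2 -2.38, SE 0.29, limma adjusted p 0.0016). The light chain CLTB (-1.36, 0.0018) and the scaffold ITSN1 (-1.19, 0.0041) fell as well, and these 3 calls were kept with each library left out. SNX18 (-1.16, 0.010) lost its call without 3D replicate 1 (0.051) or 3 (0.055). PICALM (-0.54, 0.045) completed the 5, a call that, of the single libraries, stood only when replicate 2 of 3D or replicate 3 of 2D was left out, and that was lost with equal library totals (0.10) and with edgeR (0.072). The list had 3 calls without 3D replicate 1 and also without 3D replicate 3.

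Of 17 tested BAR and F-BAR proteins, the class of PACSIN2, 5 fell and 2 rose (median log2 -0.26). SRGAP1 (-1.37, 0.0098), ARHGAP10 (-1.11, 0.010), GAS7 (-1.37, 0.015) and BAIAP2L1 (-0.92, 0.016) fell, each with its log2 difference and limma adjusted p. FCHSD1 rose to 381 ± 56.3 in 3D, against 172 ± 30.9 in 2D (1.14, 0.011), and MTSS1, low in both cultures, rose to 18.4 ± 3.49 in 3D, against 5.02 ± 2.60 in 2D (1.79, 0.044). SRGAP1 lost its call without 3D replicate 3 (0.051) and ARHGAP10 without 2D replicate 1 (0.051). GAS7 lost it when replicate 1 or 3 of 3D or replicate 1 of 2D was left out (0.063 to 0.065), and FCHSD1 when replicate 1 or 3 of 3D was (0.057 and 0.063). BAIAP2L1 kept its call only when 3D replicate 2 or 2D replicate 3 was left out, and MTSS1 and MTSS2, the fifth gene that fell (-0.72, 0.022), only when 2D replicate 3 was. The MTSS1 call was also lost with a pseudocount of 0.1 (0.056) and without a filter on low values (0.059). The list had 2, 4 and 9 calls without 2D replicates 1, 2 and 3, and 2 and 1 without 3D replicates 1 and 3.

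Of 17 tested genes of sphingolipid and phosphatidylserine synthesis, lipids that gather in caveolae, 5 fell and none rose (median log2 -0.40). SPTLC3, a subunit of serine palmitoyltransferase, fell to 67.8 ± 3.46 in 3D, against 364 ± 33.9 in 2D (log2 -2.40, SE 0.22, limma adjusted p 0.00057). SGMS1, a sphingomyelin synthase, fell to 923 ± 217 in 3D, against 2976 ± 108 in 2D (-1.71, 0.0012), and both calls were kept with each library left out. DEGS1 (-0.77, 0.011) and CERS5 (-0.95, 0.015) fell too, but both calls were lost without 3D replicate 1 or 3 (0.054 to 0.075), and that of CERS5 also without 2D replicate 1 (0.066). SGMS2 was the other gene that fell (-0.75, 0.021), a call lost without replicate 1 or 2 of 2D (0.073 and 0.072) or replicate 1 or 3 of 3D (0.071 and 0.097). Leaving out 2D replicates 1 and 3 gave 3 and 8 calls in the list, and leaving out either 3D replicate 1 or 3 gave 2.

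Of 14 tested mechanosensitive regulators and targets, 8 fell and none rose (median log2 -0.91, against -0.02 over all genes tested). TEAD1, the DNA-binding partner of YAP1, fell to 3610 ± 381 in 3D, against 18461 ± 4077 in 2D (log2 -2.34, SE 0.21, limma adjusted p 0.00055). Its target ANKRD1 fell to 1.59 ± 1.47 in 3D, against 91.4 ± 42.4 in 2D (-5.24, 0.0017). TEAD4 (-1.20, 0.0028) and MRTFA (-0.94, 0.0088) fell too, and all 4 calls were kept with each library left out. CCN1 and CCN2, targets of YAP1 that were picked after their values were seen, shared the high 2D replicate 3 of CAVIN1 and EHD2: CCN1 had 332.2, 1283.5 and 418.1 in the 3D libraries, against 2415.0, 2214.0 and 18820.8 in the 2D libraries. CCN2 had 20.4, 158 and 42.3 in the 3D libraries, against 274, 328 and 3320.7 in the 2D libraries. The target ANKRD1 went the other way within 2D, at 128.7, 100.3 and 45.2 in replicates 1 to 3, so the high 2D replicate 3 was not shared by all listed targets. The list had 4 and 5 calls without 3D replicates 1 and 3, and 10 without 2D replicate 3.

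**Figure D5:**
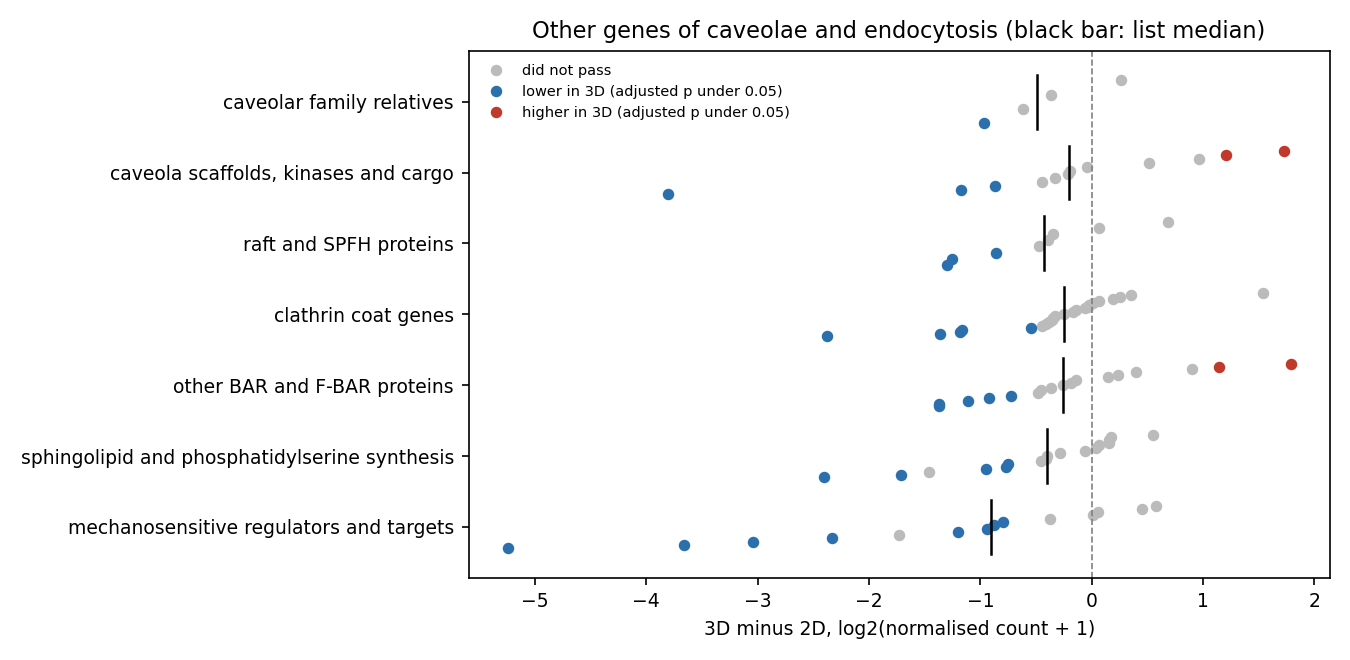
Log2 difference, 3D minus 2D, of each tested gene in 7 lists of genes related to caveolae and endocytosis, with genes past the test coloured and black bars at the list medians. The medians lie between -0.91 for mechanosensitive genes and -0.20 for scaffolds, kinases and cargo.

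Markers of cell types rich in caveolae, and of pigment cells, were read beside the members. KDR, TEK, TIE1 and CLDN5, of the endothelial list, had at most 12.8 normalised counts in any library. Of the 4 endothelial markers tested, PECAM1 rose to 94.6, 154 and 101 in the 3D libraries, against 0, 0 and 9.25 in the 2D libraries (limma adjusted p 0.0040), and ESAM fell (log2 -0.83, limma adjusted p 0.039), a call lost with equal library totals (0.063) and kept, of the single libraries, only when replicate 2 of 3D or replicate 3 of 2D was left out. The summed endothelial list ran from 277 to 387 in 3D and from 300 to 654 in 2D. Its high value in 2D replicate 3 came with CDH5, which had 268 there, 19.5 to 21.7 in the 3D libraries and 25.7 and 13.9 in the other 2D libraries, beside the high CAVIN2 and EHD2 of that library.

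Of 3 tested muscle markers, DES rose, a call lost without 3D replicate 3, and ACTC1 fell, the summed list ran from 577 to 636 in 3D and from 428 to 939 in 2D, and MYOG, CKM and CNN1 had at most 11.6 in any library. Of 2 tested fibroblast markers, COL1A1 and PDGFRB, neither passed, though both had 3D higher past the test without 2D replicate 3 (limma adjusted p 0.00032 and 0.0057). The summed fibroblast list, mostly COL1A1, ran from 4529 to 5748 in 3D and from 1599 to 4798 in 2D, with DCN, FAP and THY1 at most 8.22. Of 2 tested adipocyte markers, LPL fell to 3788 ± 371 in 3D, against 31753 ± 10445 in 2D (limma adjusted p 0.00057). The summed list, almost all of it LPL, ran from 3667 to 4246 in 3D and from 19776 to 38750 in 2D. PLIN4, the other one, did not pass at 58.2 ± 35.9 in 3D and 13.8 ± 11.4 in 2D (log2 2.22, limma adjusted p 0.094, and 0.024 without 2D replicate 3), and PLIN1, too low to test, had 8.72 to 14.8 in 3D and 0 to 1.91 in 2D.

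Of 3 tested pigment cell markers, MITF fell to 288 ± 19.0 in 3D, against 1131 ± 215 in 2D (limma adjusted p 0.00077), and DCT fell to 0.619 ± 1.07 in 3D, against 70.0 ± 42.4 in 2D (limma adjusted p 0.0014). PMEL did not pass, at 1071 ± 398 in 3D and 434 ± 280 in 2D (log2 1.41, limma adjusted p 0.053), but passed without 3D replicate 2 (0.044), without 2D replicate 3 (0.0022) and with equal library totals (0.042). The summed pigment list ran from 910 to 1666 in 3D and from 1596 to 1873 in 2D, mostly PMEL and MITF. SOX10, MLANA, TYR, TYRP1 and S100B had at most 37.0 in any library, so that several defining markers of the melanocyte lineage were near absent from this melanoma line in both cultures. The part of any of these markers in the members' differences was not tested.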

How the data were processed

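RNA of 6 M14 libraries was extracted with a column kit, made into libraries with the Illumina TruSeq v2 kit and sequenced on a NovaSeq, per the labels' protocols. This kit does not keep the strand, so sense and antisense reads cannot be told apart. HISAT2, featureCounts 1.5.0 and DESeq2 on GRCh38/hg38 are named in the submitters' processing notes, and further versions were not given in these sources. Deposited was a signal for each gene, made of read counts that the authors divided by 1 size factor per library, per the file headers and the values. Whole reads were recovered for 100% of values (tolerance 0.01 of a read). Library sizes ranged from 16567763 to 19954987 reads, and 6 empty columns were not used. No 2 libraries were duplicates, since the most alike pair had a mean chi-square of 9.42 per gene.

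Group and replicate came from the titles. Of 26748 genes, 26506 had a symbol and 26702 were in GENCODE 29. Genes with a mean of at least 10 (15598) were fitted on log2(value + 1) with limma 3.58.1 (R 4.3.3, eBayes with a trend, 2-sided, Benjamini-Hochberg adjustment at 0.05), with culture as the only term, and the procedure was tested on simulated data. Separate cultures are not stated, so p-values rest on the spread among these 6 libraries, which can be technical. As alternatives, edgeR 4.0.16 on the recovered reads called 3657 genes, and DESeq2 1.42.0, pseudocounts of 0.1 and of 10, tests without a filter or with a minimum mean of 50, TMM scaling, equal library totals, a replicate block and leaving out each library were run. Tables were made with Python 3.11.15, pandas 2.3.3 and numpy 2.4.6. Sequences are from RefSeq (GRCh38.p14).

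Members and lists were chosen with earlier results of these data known. Named were all members, every tested relative, up to 4 genes per direction and list with the smallest adjusted p among those called, the 3 nearest protein-coding genes on each side of CAV2 and CAV1, and the 5 protein-coding genes most like CAV1 and CAVIN1. CCN1, CCN2, PICALM, MTSS2, SGMS2, ARFGAP3, AC068733.3 and marker genes without a call were named outside this rule after their values were seen.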

Additional observations from a re-analysis of the deposited data

How the results depend on the processing

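The count of genes that differed between 3D and 2D, 3766 of 15598, ran from 1190 to 7111 when single libraries were left out, with 1307, 2985 and 1190 without 3D replicates 1, 2 and 3 and 1549, 1793 and 7111 without 2D replicates 1, 2 and 3. The count among the 95 other caveola and endocytosis genes, 34, ran from 14 to 49 in the same way and from 30 to 34 under the other alternatives. The number of members whose cultures did not overlap, 4, was 4 to 6 with a library left out, where 46.6% to 67% of all genes tested did not overlap. CAV1, CAV2, CAVIN1 and PACSIN2 kept a negative log2 difference under all 15 alternatives, whereas CAVIN2, CAVIN3 and EHD2 changed sign under at least 1, and the largest move was that of CAVIN2 to 0.88 without 2D replicate 3. Of the 51 genes beside the members that the naming rule picked, none changed direction, and 63 of 306 values with a library left out and 18 of 454 under other alternatives lost their call. Both totals include values of genes without a call in the main fit, such as EHD4 and CAPZA2, which had none to lose. The share lost among called genes was therefore larger. Outside that rule, ARFGAP3 ran from -0.52 to 0.13 and CDH5 from -1.96 to 0.13 with a library left out. Same-numbered libraries of 3D and 2D deviated from their group means with r of -0.08, -0.14 and 0.04, so no shared deviation by number was seen. Deviations within groups of 3 cannot show whether same-numbered libraries were handled together, and the labels do not say. With the replicate block, 3222 genes were called, 30 of them among the 95. CAVIN2, at 6 to 55 reads a library, is limited by counting error.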
